A study of Mus musculus with 18 samples.

Results

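Levels of 9 genes that mark excitatory neurons of the cerebral cortex and their layers were followed in mouse cortex after stroke. The genes were Slc17a7, Camk2a, Neurod6, Cux2, Rorb, Fezf2, Bcl11b, Tbr1 and Foxp2. They were chosen by name from general knowledge of the cortex, with earlier results of these data known. All 9 were found among the 37319 genes of the deposited table. RNA sequencing had been done on the cortex of the operated side in male C57BL/6J mice (strain label C57BL/6), aged 8 to 10 weeks and weighing 24 to 26 g. Every mouse, controls included, had received an adeno-associated virus (AAV) in the left lateral ventricle. The virus carried a short hairpin RNA behind the neuronal promoter of synapsin. The hairpin was directed against TIPARP (AAV-SYN-shRNA-TIPARP, the Tiparp arm, T) or was a scramble control (AAV-SYN-shRNA-Con, the control arm, C). After 4 weeks the mice had sham surgery or transient middle cerebral artery occlusion (tMCAO). The occlusion blocks and reopens the artery that supplies lateral cortex and striatum. Cortex was taken at 24 h or 28 d after tMCAO, and the titles of the sham samples give no time. There were 18 libraries, 3 for each condition and arm: Sham_C and Sham_T after sham surgery, R24h_C and R24h_T at 24 h, and R28d_C and R28d_T at 28 d.

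Excitatory neurons of the cortex release glutamate and are born in sequence, so that early-born cells settle in the deep layers and late-born cells in the upper layers. Slc17a7 encodes the vesicular glutamate transporter VGLUT1, Camk2a the alpha subunit of a calcium- and calmodulin-dependent kinase of the postsynaptic density, and Neurod6 a basic helix-loop-helix transcription factor of excitatory neurons. The remaining genes encode transcription factors: Cux2 of upper layers, Rorb of layer 4, Fezf2 and Bcl11b (CTIP2) of the layer 5 neurons that project below the cortex, and Tbr1 and Foxp2 of layer 6. Bcl11b and Foxp2 are also made by spiny projection neurons of the striatum, and Neurod6, Camk2a and Slc17a7 also by hippocampal neurons.

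The upstream DNA of Neurod6 and Slc17a7 is shown because these pan-excitatory markers were at the lowest and the fourth lowest share of sham among the 9 in the library that stood furthest apart, R24h_C3. Both sequences are the 250 bases before the RefSeq start site, 5′ to 3′ on the gene's strand, in build GRCm38.p6. The Neurod6 window is chr6:55681264-55681513 on the minus strand and the Slc17a7 window is chr7:45163671-45163920 on the plus strand, and neither holds an exon of GENCODE M21. Capitals mark E-boxes, the core CANNTG that basic helix-loop-helix factors such as NEUROD6 can bind, which reads the same on both strands.
Neurod6: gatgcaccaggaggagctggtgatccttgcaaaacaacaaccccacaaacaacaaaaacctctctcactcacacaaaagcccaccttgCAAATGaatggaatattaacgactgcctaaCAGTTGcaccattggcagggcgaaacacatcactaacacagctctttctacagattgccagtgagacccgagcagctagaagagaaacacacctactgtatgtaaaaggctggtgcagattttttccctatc
Slc17a7: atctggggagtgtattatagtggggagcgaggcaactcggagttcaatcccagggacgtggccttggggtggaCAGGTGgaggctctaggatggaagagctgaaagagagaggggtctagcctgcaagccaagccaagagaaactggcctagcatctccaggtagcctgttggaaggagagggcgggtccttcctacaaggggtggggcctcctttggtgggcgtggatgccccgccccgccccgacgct
The Neurod6 window held 2 E-boxes and no GC box, spelled GGGCGG and searched on both strands. The Slc17a7 window held 1 E-box and 3 GC boxes. RefSeq windows of 7 of the 9 genes were used, and 6 of their 9 windows held an E-box, against 66.2% of 32851 windows of the same length, while 4 held a GC box, against 32.7%. These matches describe the sequences and were not tied to the levels.

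Several libraries stood apart before any comparison. Tiparp itself was at 4.17 to 4.95 FPKM in Sham_T and 3.77 to 4.76 FPKM in Sham_C, at 3.00 to 5.00 FPKM in R24h_T and 4.60 to 8.65 FPKM in R24h_C, and at 3.72 to 4.06 FPKM in R28d_T and 3.59 to 4.46 FPKM in R28d_C, so that only the 24 h ranges lay lower in the Tiparp arm, with overlap. Levels are FPKM, fragments scaled to transcript length and library size, which the authors computed. Ttr, a choroid plexus product, exceeded 100 FPKM in Sham_T1 (624), Sham_T2 (501), R24h_C3 (1682) and R28d_T2 (712), against 0.892 to 81.9 FPKM in the other 14 libraries. The summed level of 14 striatal markers was highest in R24h_C3 (468.9 FPKM) and in Sham_T3 (402.6 FPKM), against 63.5 to 244 FPKM in the other 16. Of the 24 h libraries, R24h_T3 had the lowest level of the astrocyte gene Gfap, at 150 FPKM (255 to 414 in the other 5) and of the endothelial gene Cdh5, at 1.81 FPKM (4.94 to 13.6). The parts of these differences in the results were not tested, except where a value without a library is given. No label says that the 3 libraries of a group came from separate mice, so each p-value measures only the spread between libraries. In tissue RNA, fewer neurons of a type and less RNA per neuron cannot be told apart.

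In control-arm sham the order of levels per transcript length was clear. Camk2a was at 428 ± 15.8 FPKM (SD, n = 3), Slc17a7 at 133 ± 3.54, Tbr1 at 26.8 ± 2.20, Neurod6 at 25.1 ± 1.23, Fezf2 at 13.4 ± 0.403, Cux2 at 11.7 ± 0.254, Bcl11b at 7.79 ± 0.320, Rorb at 3.05 ± 0.132 and Foxp2 at 0.530 ± 0.159. Only Tbr1 and Neurod6 had overlapping libraries among neighbours in this order. These 2 genes changed places in Sham_T, R28d_C and R28d_T, where Neurod6 had the higher mean, and their libraries were separate in R24h_T and R28d_T. Bcl11b, Rorb and Foxp2 held the last 3 places in all 6 groups. Foxp2 was above 1 FPKM in 1 library (R28d_T1, 1.04), did not pass the filter of 1 FPKM in 3 libraries and was not tested, which left 8 tested genes.

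**Figure D1:**
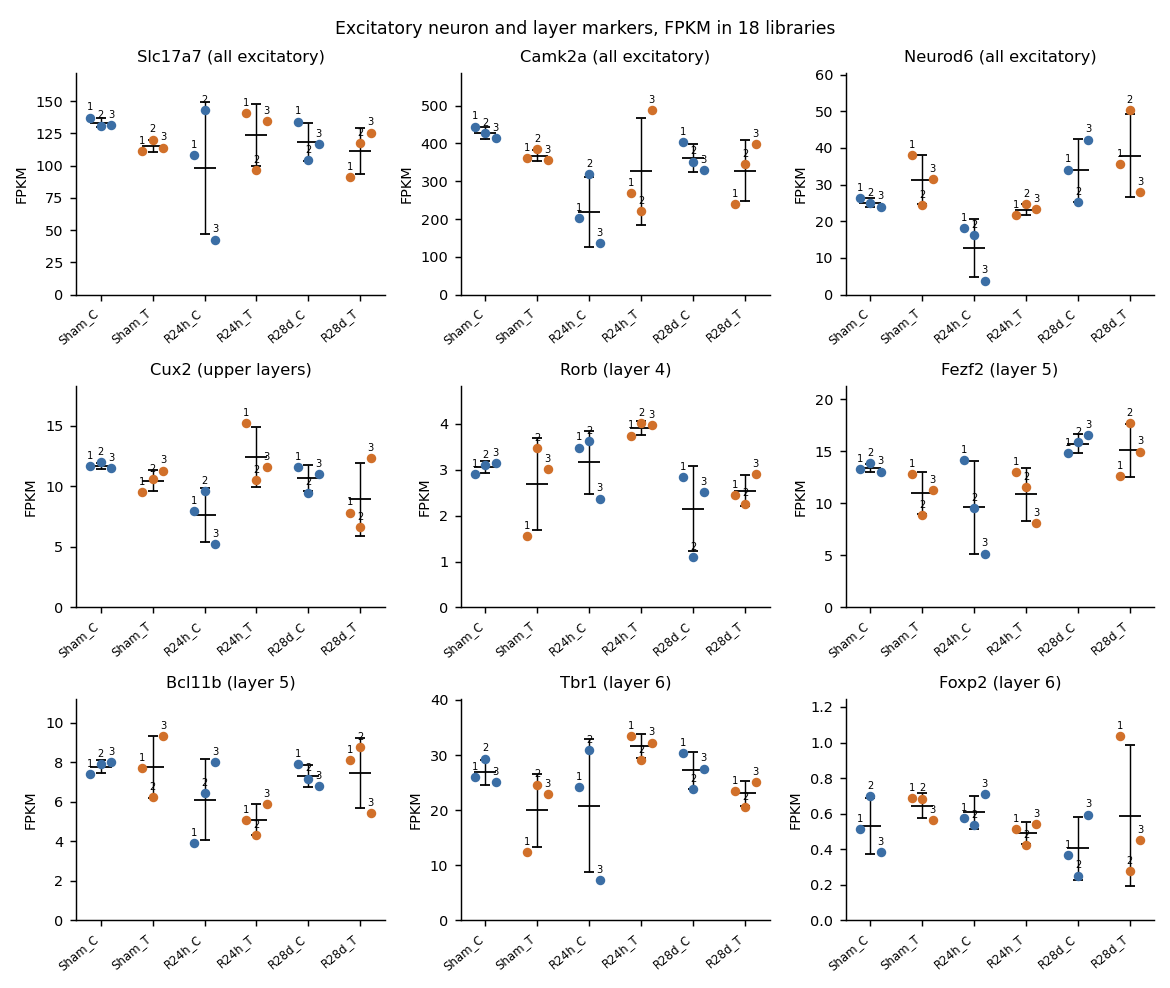
FPKM of the 9 markers (y axis, linear, from 0) in the 6 groups (x axis); each point is 1 library, bars are the mean and SD of 3, and control and Tiparp arms have different colours. R24h_C3 is the lowest point for 6 of the 9 genes.

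The first comparison asked how the markers stood 24 h after occlusion, with 6 sham and 6 24 h libraries and the arm as a covariate. Bcl11b was the 1 of 8 tested genes that passed (limma, Benjamini-Hochberg adjusted p under 0.05 over all tested genes), and 3 were at an unadjusted p under 0.05. Over all 14578 genes tested, 24.7% passed, with 2810 higher and 785 lower, and 5.38% passed as lower. Scaling the libraries to equal median ratios changed that split to 1843 higher and 1331 lower. None of the 8 genes had separate sham and 24 h libraries, against 10.1% of all genes tested.

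Slc17a7, the glutamate transporter, was at 137, 131 and 131 FPKM in Sham_C and at 111, 120 and 114 FPKM in Sham_T. After 24 h the levels were 108, 143 and 42.6 FPKM in R24h_C1 to R24h_C3 and 141, 96.3 and 135 FPKM in R24h_T1 to R24h_T3. Thus 3 of the 6 24 h libraries lay below every sham library and 2 lay above every one. The difference of 24 h from sham was -0.26 on the log2(FPKM + 1) scale (SE 0.25, limma adjusted p = 0.469), and it was 0.01 without R24h_C3.

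Camk2a, the kinase subunit whose mRNA is also carried into dendrites, was at 445, 427 and 413 FPKM in Sham_C and at 361, 385 and 357 FPKM in Sham_T. It was at 203, 319 and 136 FPKM in R24h_C and at 268, 221 and 488 FPKM in R24h_T. Of the 6 24 h libraries 5 were below the lowest sham library, and R24h_T3, the sixth, was the highest of all 18. Over both arms the difference was -0.65 (SE 0.24, limma adjusted p = 0.0627); it passed without R24h_T3 (-0.84, adjusted p = 0.00544), without R24h_C2 (-0.75, adjusted p = 0.0464) and with all 18 libraries in 1 fit (adjusted p = 0.0259).

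In the control arm alone Camk2a fell, with a mean of 219 ± 92.6 FPKM at 24 h (SD, n = 3), 51.2% of the Sham_C mean. The difference was -1.05 (SE 0.29, limma adjusted p = 0.0411), and Camk2a was the 1 of 8 markers that passed there, with 2 at an unadjusted p under 0.05. Of all genes 24% passed in that arm and 4.23% passed as lower, with 2746 higher and 587 lower, or 1604 and 1027 after scaling, which moved the median of all genes from 0.13 to 0.00. The call was lost without the filter on low levels (adjusted p = 0.101) and when any of Sham_C1, Sham_C2, Sham_C3, R24h_C1 or R24h_C3 was left out (adjusted p from 0.0521 to 0.126), while it was kept without R24h_C2 (adjusted p = 0.00373).

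Neurod6 was at 26.4, 24.9 and 24.0 FPKM in Sham_C and at 38.0, 24.5 and 31.5 FPKM in Sham_T. The 24 h levels were 18.2, 16.2 and 3.80 FPKM in the control arm and 21.6, 24.6 and 23.3 FPKM in the Tiparp arm. Only R24h_T2, at 24.6 FPKM, reached the range of sham. The difference over both arms was -0.78 (SE 0.30, limma adjusted p = 0.0716). Without R24h_C3 it was smaller and passed (-0.46, adjusted p = 0.0125), and it also passed without the 4 libraries with high Ttr (-0.49, adjusted p = 0.0155) and in the fit of all 18 libraries (adjusted p = 0.0408). In the control arm, where the sham and 24 h libraries of Neurod6, Camk2a and Cux2 were separate (47.9% of all genes were), Neurod6 differed by -1.16 (SE 0.50, limma adjusted p = 0.132), and without R24h_C3 by -0.52 (adjusted p = 0.0274).

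The ratio of Camk2a to Slc17a7 was looked at after the values were seen. In FPKM it was 3.14 to 3.26 in the 6 sham libraries. At 24 h it was 1.88, 2.23 and 3.20 in R24h_C1 to R24h_C3 and 1.91, 2.29 and 3.63 in R24h_T1 to R24h_T3. Thus 4 libraries, 2 of each arm, lay well below the sham range, R24h_C3 lay within it although both genes were low there, and R24h_T3 lay above it. At 28 d the ratio was 2.63 to 3.37, with the lowest value in R28d_T1.

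**Figure D2:**
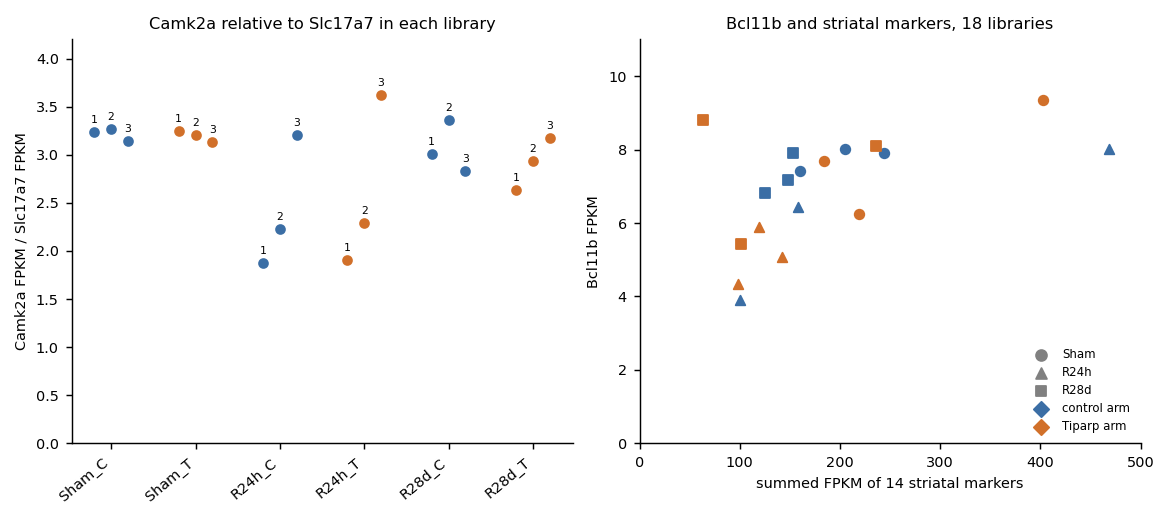
Left, the ratio of Camk2a to Slc17a7 FPKM (y axis, linear) in each library of the 6 groups; right, Bcl11b FPKM (y axis) against the summed FPKM of 14 striatal markers (x axis), 1 point per library, with shape for condition and colour for arm. The sham ratios lie between 3.14 and 3.26 and 4 of the 24 h ratios between 1.88 and 2.29; R24h_C3 is the point at 468.9 FPKM of striatal markers.

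The upper layer gene Cux2 was at 11.7, 12.0 and 11.5 FPKM in Sham_C and at 9.51, 10.6 and 11.3 FPKM in Sham_T. Its 24 h levels were 7.95, 9.63 and 5.23 FPKM in the control arm and 15.2, 10.5 and 11.6 FPKM in the Tiparp arm. The control-arm libraries were all below Sham_C, whereas the Tiparp-arm libraries lay within or above the sham range. The difference over both arms was -0.19 (SE 0.17, limma adjusted p = 0.432). In the control arm it was -0.60 (SE 0.19, limma adjusted p = 0.0632), and it passed after scaling (-0.74, adjusted p = 0.0496), with all 18 libraries in 1 fit (adjusted p = 0.0427) and without R24h_C2 (-0.77, adjusted p = 0.0160). Without R24h_C3 it was -0.38 in the control arm (adjusted p = 0.0550) and -0.05 over both arms. The gene models Gm3970 and Gm15637 overlap Cux2 on the opposite strand. The libraries were stranded, but whether strand was used in counting is not given in the sources used here.

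Rorb, a nuclear receptor of layer 4, was at 1.55 FPKM in Sham_T1 and at 2.90 to 3.47 FPKM in the other 5 sham libraries. The 24 h libraries held 3.48, 3.62 and 2.37 FPKM in R24h_C and 3.74, 4.02 and 3.97 FPKM in R24h_T. All but R24h_C3 were above every sham library. The difference was 0.24 (SE 0.14, limma adjusted p = 0.229), so the marker of layer 4 had a higher mean at 24 h but did not pass.

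Bcl11b fell at 24 h. Its sham levels were 7.42, 7.91 and 8.03 FPKM in Sham_C and 7.70, 6.25 and 9.35 FPKM in Sham_T. Levels at 24 h were 3.90, 6.44 and 8.01 FPKM in R24h_C and 5.07, 4.33 and 5.89 FPKM in R24h_T. Of these 6 libraries 4 were below the lowest sham library, R24h_C2 was just above it, and R24h_C3 was above the sham mean of 7.78 FPKM. The difference was -0.43 (SE 0.14, limma adjusted p = 0.0416), to 72.1% of the sham mean. It was lost without the filter (adjusted p = 0.0913) and when any of the 3 Sham_C libraries, Sham_T1, Sham_T3, R24h_C1, R24h_T1 or R24h_T2 was left out (adjusted p from 0.0646 to 0.0930), and was lowest in p without R24h_C3 (-0.53, adjusted p = 0.0148). It was -0.63 without the 4 libraries with high Ttr (adjusted p = 0.0292). Within arms the difference was -0.35 in the control arm (limma adjusted p = 0.268) and -0.52 in the Tiparp arm (adjusted p = 0.257).

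The striatum also makes Bcl11b, and its markers had lower means in the same comparison. Of 14 striatal markers 13 were tested, and all 13 were below sham at 24 h, with a median difference of -0.74 against 0.10 over all genes. The 1 that passed was the dopamine receptor gene Drd2 (-1.58, limma adjusted p = 0.0389), beside 5.38% of all genes that passed as lower. Drd2, Adora2a and Gpr6 were at 1 FPKM in fewer than 3 of the 24 h libraries. The filter thus admitted these genes through sham, where they were higher, and their direction is no support of a fall. The summed level was 160.6 to 402.6 FPKM in sham and 97.9 to 158.6 FPKM in 5 of the 24 h libraries, and R24h_C3, the sixth, had 468.9 FPKM together with the highest Bcl11b at 24 h. None of the 14 was under 1 FPKM in every library. The 28 d library with the lowest striatal sum, R28d_T2 at 63.5 FPKM, had Bcl11b at 8.79 FPKM and the highest sum of 7 hippocampal markers, 34.3 FPKM against 4.55 to 20.1 FPKM elsewhere. The part of striatal RNA in the Bcl11b result was not tested.

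Fezf2, which specifies corticospinal and other subcortical projection neurons, was at 13.3, 13.8 and 13.1 FPKM in Sham_C and at 12.8, 8.88 and 11.3 FPKM in Sham_T. It was at 14.1, 9.57 and 5.17 FPKM in R24h_C and at 13.0, 11.5 and 8.07 FPKM in R24h_T. The 24 h libraries thus spanned the sham range on both sides. The difference was -0.28 (SE 0.20, limma adjusted p = 0.325). Fezf2 and Bcl11b, both of layer 5, stood in different proportions in the 24 h libraries: the Bcl11b to Fezf2 ratio was 0.557 to 0.829 in sham, and at 24 h it was 0.277, 0.673 and 1.55 in R24h_C1 to R24h_C3 and 0.389, 0.375 and 0.730 in R24h_T1 to R24h_T3. Thus 3 of the 24 h libraries lay below the sham range, 2 within it and 1 above it. At 28 d the ratio was 0.363 to 0.642, with R28d_T1 the 1 library within the sham range and 5 below it.

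Tbr1, a T-box factor of layer 6, was at 26.1, 29.3 and 25.1 FPKM in Sham_C and at 12.3, 24.6 and 22.9 FPKM in Sham_T. Levels of 24.2, 30.9 and 7.35 FPKM in R24h_C and of 33.5, 29.1 and 32.3 FPKM in R24h_T followed at 24 h. The lowest sham library, Sham_T1, was also the lowest sham library for Rorb and the highest for Neurod6. The difference was 0.07 (SE 0.33, limma adjusted p = 0.901) and changed sign after scaling (-0.04), while it was 0.40 without R24h_C3; in the Tiparp arm, where the groups were separate along with those of Rorb and Bcl11b (22.2% of all genes), it was 0.69 (adjusted p = 0.282). In that arm 0 of 8 markers passed with limma, 3 were at an unadjusted p under 0.05, and 0.2% of all genes passed. Foxp2 was at 0.381 to 0.698 FPKM in sham, 0.423 to 0.711 FPKM at 24 h and 0.252 to 1.04 FPKM at 28 d.

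R24h_C3 set much of the spread in the control arm at 24 h. Relative to the mean of Sham_C it held 15.2% of Neurod6, 27.4% of Tbr1, 31.8% of Camk2a, 32.0% of Slc17a7, 38.6% of Fezf2 and 44.7% of Cux2. In contrast, Rorb was at 77.7%, Bcl11b at 103% and Foxp2 at 134%. Other excitatory genes were low as well: the median of the 15 other pan-excitatory genes was 1.12 below the sham mean on the log2(FPKM + 1) scale, that of 13 pan-neuronal genes 0.70 below, that of 14 interneuron genes 0.12 above and that of the striatal genes 0.95 above. Gad2, which makes the transmitter GABA, was at 66.4 FPKM there, against 17.5 to 41.2 FPKM in the other 17 libraries. Across all 18 libraries the SD of Neurod6 on the log2 scale was 0.73, and 0.41 without this library.

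**Figure D3:**
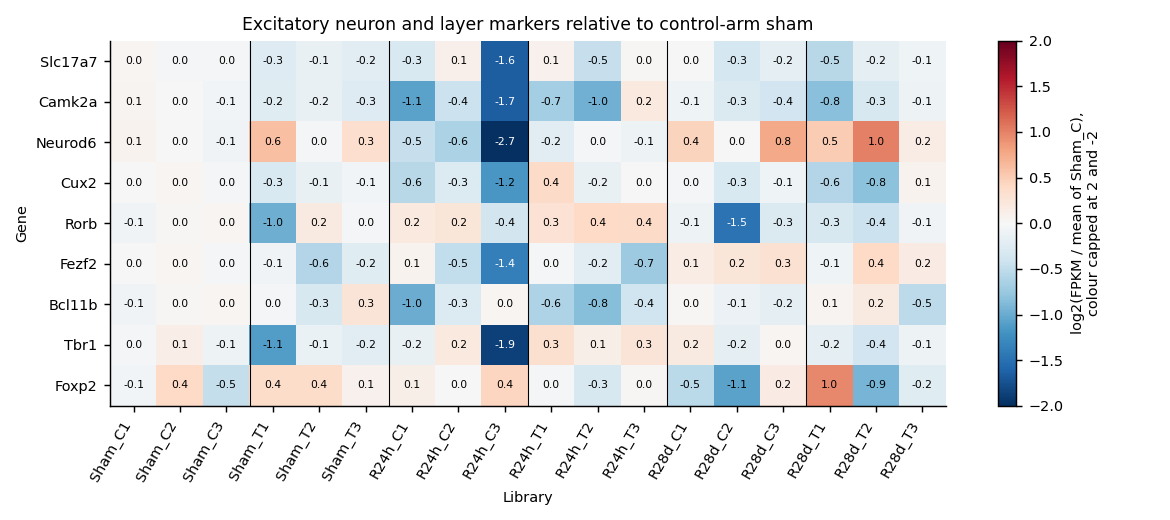
Each cell is log2 of a library's FPKM over the mean of the 3 Sham_C libraries, for 9 genes (rows) and 18 libraries (columns); the colour scale ends at 2 and -2, so Neurod6 in R24h_C3, at 15.2% of the mean, is drawn at the end of the scale. The column of R24h_C3 is low for 6 genes and not for Bcl11b and Foxp2.

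At 28 d none of 8 markers passed against sham (limma, 0 calls), 1 was at an unadjusted p under 0.05, and 0.00703% of all genes, 1 of 14234, passed. None of the 8 had separate groups, against 1.46% of all genes. Fezf2 had the smallest p. It was at 14.8, 15.8 and 16.6 FPKM in R28d_C and at 12.6, 17.7 and 15.0 FPKM in R28d_T, so that 5 of 6 libraries were above the highest sham library (difference 0.32, SE 0.09, limma adjusted p = 0.145).

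Neurod6 at 28 d was at 34.1, 25.2 and 42.3 FPKM in R28d_C and at 35.5, 50.3 and 27.9 FPKM in R28d_T, the highest being R28d_T2, the library with high Ttr and the highest sum of hippocampal markers. Its difference from sham was 0.32 (limma adjusted p = 0.316). Camk2a was at 403, 352 and 330 FPKM in R28d_C and at 239, 345 and 398 FPKM in R28d_T, with 4 of 6 libraries below the lowest sham library (-0.22, limma adjusted p = 0.300). Slc17a7 was at 91.0 to 134 FPKM, Cux2 at 6.61 to 12.3 FPKM, Tbr1 at 20.6 to 30.3 FPKM and Bcl11b at 5.43 to 8.79 FPKM, with differences of -0.12, -0.19, 0.13 and -0.07 from sham. Rorb was at 1.10 FPKM in R28d_C2 and at 2.26 to 2.91 FPKM in the others (-0.22, limma adjusted p = 0.546). Within arms 0 of 8 passed at 28 d (limma), with 2 at an unadjusted p under 0.05 in the control arm, where 0.0522% of all genes passed, and 1 in the Tiparp arm, where 0.00739% did. In the control arm the sham and 28 d libraries were separate for Fezf2 (higher), Rorb and Camk2a (both lower), as they were for 18.7% of all genes; in the Tiparp arm they were separate for no marker and for 16.3% of all genes.

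From 24 h to 28 d, which uses the same 24 h and 28 d libraries as the comparisons with sham, 0 of 8 markers passed with limma and 4 were at an unadjusted p under 0.05, against 2.98% of all genes that passed. Neurod6 had separate groups, as did 2.67% of all genes: the highest 24 h library was at 24.6 FPKM and the lowest 28 d library at 25.2 FPKM. Its difference was 1.10 (SE 0.33, limma adjusted p = 0.0766), and it passed without R24h_C3 (0.77, adjusted p = 0.0424), without R24h_T3 (1.15, adjusted p = 0.0462) and with all 18 libraries in 1 fit (adjusted p = 0.0162). Fezf2 was 0.60 higher (adjusted p = 0.0917, and 0.0304 with all 18 libraries) and Bcl11b 0.36 higher (adjusted p = 0.161) at 28 d, whereas Rorb was 0.46 lower (adjusted p = 0.0850). Slc17a7, Camk2a, Cux2 and Tbr1 differed by 0.14, 0.43, 0.00 and 0.07.

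**Figure D4:**
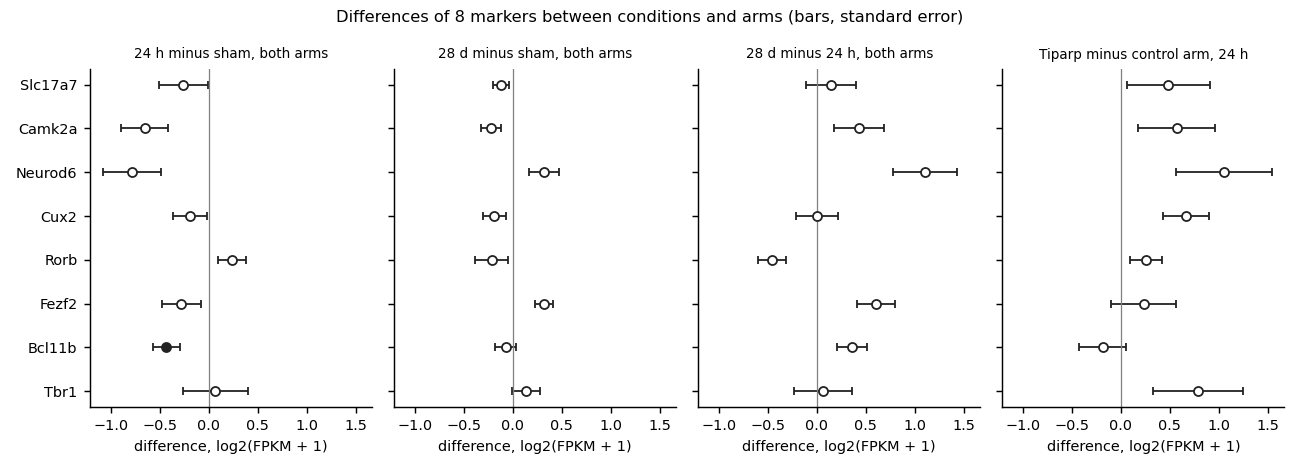
Differences of the 8 tested markers (rows) on the log2(FPKM + 1) scale (x axis) in 4 comparisons: 24 h minus sham, 28 d minus sham and 28 d minus 24 h over both arms, and Tiparp minus control arm at 24 h; bars are the standard error and filled points passed at adjusted p under 0.05. The 1 filled point is Bcl11b at 24 h.

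The arms were compared to ask whether the shRNA vector against Tiparp went with other marker levels. In sham 0 of 8 passed (limma; 2 at an unadjusted p under 0.05; 0.21% of all genes passed), although the libraries of Slc17a7, Cux2, Fezf2, Tbr1 and Camk2a were all lower in Sham_T than in Sham_C, as separate groups were for 19.5% of all genes in either direction. The sham differences were -0.21 for Slc17a7 (SE 0.05, limma adjusted p = 0.219) and -0.22 for Camk2a (adjusted p = 0.219). At 24 h the means of 7 of 8 tested markers were higher in the Tiparp arm, from 0.23 for Fezf2 to 0.79 for Tbr1 and 1.05 for Neurod6, and that of Bcl11b was 0.19 lower. None passed (limma, 0 of 8 and 0% of all genes; 1 at an unadjusted p under 0.05), and the smallest adjusted p was 0.667. The groups of Cux2, Rorb and Neurod6 were separate, as were 12% of all genes. Without R24h_C3 the difference of Slc17a7 was -0.03, that of Fezf2 -0.11 and that of Bcl11b 0.01, so their direction rested on that library. Those of Neurod6, Tbr1, Cux2, Camk2a and Rorb were then 0.41, 0.20, 0.45, 0.27 and 0.11. At 28 d no marker passed (limma; 0 at an unadjusted p under 0.05; 0% of all genes), no group was separate (6.09% of all genes were), and the differences ran from -0.27 for Cux2 to 0.21 for Rorb.

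The difference between the arms in their response to occlusion was tested as an interaction. At 24 h 0 of 8 markers passed (limma; 1 at an unadjusted p under 0.05; 0% of all genes). The interaction was 0.81 for Cux2 (SE 0.26, limma adjusted p = 0.416) and 1.25 for Tbr1 (adjusted p = 0.457), and it was positive for the others except Bcl11b (-0.17). Without R24h_C3 it was 0.60 for Cux2 and 0.67 for Tbr1. A different 24 h response of the arms was thus not shown for any marker. At 28 d the interactions ran from -0.14 for Neurod6 to 0.39 for Rorb (limma; 0 of 8 passed, 0 at an unadjusted p under 0.05; 0.00703% of all genes).

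Lists of other excitatory and layer genes, 15 each, gave a wider view of 24 h against sham over both arms. Of the other pan-excitatory genes all 15 were below sham, with a median of -0.28 against 0.10 over all genes, and 2 fell. These were Itpka (-0.86, limma adjusted p = 0.0261), an inositol trisphosphate kinase of dendritic spines, and Slc6a7 (-0.45, adjusted p = 0.0462), a proline transporter. Of the upper layer genes 2 fell, Otof (-1.29, adjusted p = 0.0232), a calcium sensor of vesicle fusion, and the Wnt agonist Rspo1 (-0.39), and 1 rose, Wfs1 (0.71), a protein of the endoplasmic reticulum; the median was -0.01. Of the layer 5 genes the calmodulin regulator Pcp4 fell (-0.46, adjusted p = 0.0108) and Deptor, an inhibitor of mTOR, rose (0.45), with a median of 0.01. Of the layer 6 and subplate genes the nuclear receptor Nr4a2 (-1.27) and the neurotensin receptor Ntsr1 (-0.53) fell. Ctgf (1.18), a secreted matrix protein also made outside neurons, rose, and the median of this list was -0.03. The adaptor Sla (0.44), also of immune cells, passed as well, but was at 1 FPKM in fewer than 3 sham libraries. The filter thus admitted Sla through the 24 h libraries, where it was higher, and its direction is no support of a rise. The shares called, 2, 3, 2 and 4 of 15, stand beside 24.7% of all genes.

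Markers of other cells moved at 24 h in the same libraries. The astrocyte gene Gfap rose (3.01, limma adjusted p = 3.85e-05). The median of the 12 astrocyte genes ran only from -0.49 to 0.19 around the sham mean in the 24 h libraries (log2 scale). Of 9 tested endothelial markers 8 rose, and of 10 microglia and macrophage markers 6 rose and 1 fell, beside 24.7% of all genes in either direction. Pecam1, Flt1, Tek and Tie1 were at 1 FPKM in fewer than 3 sham libraries. The filter thus admitted them through the 24 h libraries, where they were higher, and their direction is no support of a rise. The share of summed FPKM on mitochondrial genes was 29.2% to 36.1% in 5 of the 24 h libraries and 41.4% in R24h_T3, against 38.4% to 41.6% in sham and 31.2% to 40.3% at 28 d. The part of these cells and of this share in the marker levels was not tested. Pcp4, Nr4a2, Ctgf and Sla passed in each of the 12 fits that left 1 library out. For Sla these fits used the same filter, so they are no support of a rise either. The other 7 layer and excitatory genes named lost their call in at least 1 of these fits. Without the 4 libraries with high Ttr, 0, 1, 1 and 0 genes of these 4 lists passed, and 10.1% of all genes did. At 28 d 0 genes of the 4 lists passed with limma; the smallest p was that of Pcp4 (-0.51, limma adjusted p = 0.129), followed by Ldb2 (0.35, adjusted p = 0.129), both of layer 5.

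The genes most like each marker were taken by Pearson's r of log2(FPKM + 1) over all 18 libraries among 14973 genes. These values describe libraries that share a condition and the low values of R24h_C3. Slc17a7 was most like Rab3a (r = 0.963), a small GTPase of synaptic vesicles, and Camk2a most like Nptxr (0.963), a neuronal pentraxin receptor. Cux2 was most like Rasgrf2 (0.912), also on the upper layer list, and Bcl11b most like the ryanodine receptor gene Ryr3 (0.926). Tbr1 was most like the GABA-B receptor gene Gabbr2 (0.914), Fezf2 like the somatostatin receptor gene Sstr4 (0.857), Rorb like Cntn3 (0.780) and Neurod6 like the nicotinic receptor gene Chrna4 (0.927). For Foxp2 the highest r was 0.698, with Slc25a22. Without R24h_C3 r was 0.736 for Neurod6 and Chrna4, 0.752 for Tbr1 and Gabbr2 and 0.836 for Slc17a7 and Rab3a, while it was 0.924 for Bcl11b and Ryr3. Ryr3 then still ranked 1 for Bcl11b. In contrast, Gabbr2 ranked 6 for Tbr1, Rab3a 9 for Slc17a7, Sstr4 27 for Fezf2 (r = 0.706) and Chrna4 90 for Neurod6. Nptxr ranked 10 for Camk2a (r = 0.933), Cntn3 4 for Rorb, Rasgrf2 3 for Cux2 and Slc25a22 3 for Foxp2.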

How the data were processed

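Poly(A) RNA of ipsilateral cortex was sequenced from stranded, paired-end libraries, per the labels' protocols. The deposited values are FPKM per gene, 1 column per library, computed by the authors. The submitters' processing notes name HISAT, StringTie, edgeR and build mm9, with no versions. The transcripts listed for the 9 genes are all in GENCODE M21, an annotation of GRCm38, so no coordinates of the table are given. FPKM keep no read totals and the depth is unknown. Summed FPKM were 334950 to 424157 per library. For 61 repeated symbols the entry with the highest mean was kept.

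Each comparison was fitted in R 4.3.3 with limma 3.58.1 (two-sided, empirical Bayes with a trend) to log2(FPKM + 1) of its own groups. Genes needed 1 FPKM in 3 of the libraries, with Benjamini-Hochberg adjustment over all that did and a threshold of 0.05. The pseudocount of 1 understates changes of low genes such as Rorb. The code was tested on simulated data. Tables and figures used Python 3.11.15, pandas 2.3.3, numpy 2.4.6 and matplotlib 3.10.9. Results were recomputed with median-ratio scaling (over 11554 genes), a pseudocount of 0.1, no filter, a replicate block, all 18 libraries in 1 fit, each library left out and, chosen after seeing the data, leaving out the 4 libraries with Ttr above 100 FPKM. The text names the 9 genes, of each list up to 4 passing genes or else the 2 of smallest p, and the genes most like a marker. Ratios, and genes that mark libraries standing apart (Ttr, Gfap, Cdh5, Gad2), were chosen after their values were seen. Members and lists were chosen with earlier results of these data known.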

Additional observations from a re-analysis of the deposited data

Results flagged for a closer look

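In 42 sets of 6 libraries of 1 condition (genes and ratios), 8 had a library whose gap to its nearest neighbour was above Dixon's 95% critical share of the range. Chance gives about 1 in 20 for a single set, but the sets share genes and libraries and 4 of the 8 are ratios chosen after the values were seen, so the count is not read against that rate. Rorb stood apart 3 times, each time low: 1.55 FPKM in Sham_T1, 2.37 FPKM in R24h_C3 and 1.10 FPKM in R28d_C2. Tbr1 was low in R24h_C3 (7.35 FPKM). The same library stood apart by its ratio of Bcl11b to Fezf2 (1.55) and of Bcl11b to Slc17a7 (0.188), while the other 24 h libraries had 0.0361 to 0.0451 for the latter. The ratio of Neurod6 to Tbr1 was 3.08 in Sham_T1 and 2.45 in R28d_T2, against 0.847 to 1.38 in the other sham libraries and 1.06 to 1.54 in the other 28 d libraries. Of these 4 libraries Sham_T1, R24h_C3 and R28d_T2 also had Ttr above 100 FPKM, and R28d_C2 had 81.9 FPKM. The part of that difference in these values was not tested.

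At 24 h the control-arm libraries of Cux2 were all below their sham mean and the Tiparp-arm libraries all above theirs, and for Foxp2 the reverse held. Cux2 passed in neither arm and lay within the Sham_T range in R24h_T2 (10.5 FPKM). The difference between the arms was 0.81 for Cux2 (limma adjusted p = 0.416) and -0.21 for Foxp2, which was too low to pass the filter, so that this difference was not tested.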

How the results depend on the processing

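Of 8 markers, 1 passed at 24 h over both arms (24.7% of all genes), 0 with no filter (7.65%), 3 with all 18 libraries in 1 fit (30.8%), 2 without the 4 libraries with high Ttr (10.1%), and 0 to 2 when 1 library was left out (14.2% to 35.7%). In the control arm at 24 h, 1 passed (24%), 0 with no filter (5.27%), 2 after median-ratio scaling (19%), 3 with all 18 libraries in 1 fit (25.9%) and 0 to 2 when 1 library was left out (2.41% to 36.6%). From 24 h to 28 d 0 passed (2.98%), 2 with all 18 libraries in 1 fit (17%) and 0 to 1 when 1 library was left out (0.0136% to 17.9%). The cause was not tested, except that with no filter more genes share the adjustment. In the other 9 comparisons 0 passed under each alternative run.

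With the replicate number as a block, 1 passed at 24 h over both arms (19.4% of all genes) and 0 in the control arm (14.4%), where Camk2a had adjusted p = 0.0537. Over 45 pairs of same-numbered libraries the correlation of deviations was -0.419 to 0.21, with 4 above 0.1, so the numbers are not taken to pair the libraries.

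Signs changed after scaling for Tbr1 (24 h over both arms -0.040, 28 d in the control arm -0.024), Rorb (24 h, control arm, -0.094) and Bcl11b (arms at 28 d, -0.0066, and -8.3e-05 with a pseudocount of 0.1). Without the libraries with high Ttr they changed from 24 h to 28 d for Slc17a7 (-0.13), Cux2 (-0.020) and Tbr1 (-0.19), at 24 h in the control arm for Tbr1 (0.028), between the arms in sham for Bcl11b (0.24), at 24 h for Slc17a7 (-0.025), Fezf2 (-0.11) and Bcl11b (0.0059), at 28 d for Bcl11b (-0.12) and Neurod6 (-0.070), and in the 28 d interaction for Bcl11b (-0.35).

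Leaving out 1 library changed the sign of these differences, none of which passed. They were, at 24 h over both arms, Slc17a7 (-0.38 to 0.0055) and Tbr1 (-0.13 to 0.40), and at 28 d Bcl11b (-0.13 to 0.0082) and Tbr1 (-0.012 to 0.20). From 24 h to 28 d they were Slc17a7 (-0.12 to 0.27), Cux2 (-0.14 to 0.13) and Tbr1 (-0.25 to 0.18). In the control arm they were Rorb (-0.059 to 0.17) and Tbr1 (-0.94 to 0.028) at 24 h and Tbr1 (-0.064 to 0.10) at 28 d. In the Tiparp arm they were Slc17a7 (-0.013 to 0.26) and Fezf2 (-0.16 to 0.16) at 24 h. At 28 d they were Slc17a7 (-0.15 to 0.080), Rorb (-0.26 to 0.14), Bcl11b (-0.19 to 0.12), Tbr1 (-0.046 to 0.42) and Camk2a (-0.35 to 0.012). Between the arms they were Rorb (-0.34 to 0.065) and Bcl11b (-0.14 to 0.11) in sham, and Slc17a7 (-0.025 to 0.84), Fezf2 (-0.11 to 0.53) and Bcl11b (-0.43 to 0.0059) at 24 h. At 28 d between the arms they were Slc17a7 (-0.19 to 0.045), Rorb (-0.057 to 0.38), Fezf2 (-0.18 to 0.047), Bcl11b (-0.12 to 0.19), Camk2a (-0.32 to 0.041) and Neurod6 (-0.070 to 0.34). In the interactions they were Bcl11b (-0.42 to 0.023) at 24 h, and Cux2 (-0.36 to 0.047), Bcl11b (-0.11 to 0.20), Tbr1 (-0.060 to 0.41), Camk2a (-0.10 to 0.26) and Neurod6 (-0.36 to 0.053) at 28 d.

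The depth is unknown and 3 libraries per group limit precision.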
